A study of Mus musculus with 9 samples.

Results

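The 9 genes described here restrain signalling through the kinase ERK and were followed in RNA-seq of HC11 cells, a mouse mammary epithelial line, after exposure to red light. They are the dual-specificity phosphatase genes Dusp1, Dusp4, Dusp5 and Dusp6, the Sprouty genes Spry1, Spry2 and Spry4, and the Sprouty-related genes Spred1 and Spred2. They were chosen by name from the count table, as 9 of its 54532 genes, and each name matched 1 row. The 9 libraries form 3 groups of 3, all of HC11 cells that the labels describe as mammary epithelial and of strain C57BL/6. Ctrl was untreated, and EpPT1 and EpPT2 were exposed at a wavelength of 660 nm. The labelled fluence is 10 J/cm2 in EpPT1 and 20 J/cm2 in EpPT2. The description of the treatment instead states 0.5 and 1 J/cm2 (laser of 10 mW), and because of this conflict no dose is attached to the group names. The series is also described once as using an LED, and its title names human tissue, whereas the organism label and the gene identifiers are mouse. No time between exposure and lysis is given in the sources used here. All groups are 1 cell line, and no source states that the replicates are separate cultures. The p-values therefore reflect only how far these libraries differ from each other, which may be technical variation.

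ERK is the last kinase of the cascade from growth factor receptors through Ras, Raf and MEK. Active ERK turns on the transcription of some of its own inhibitors, so that their messenger RNA is widely used as a readout of the pathway. Dusp phosphatases remove phosphate from ERK and its relatives, Sprouty proteins act between receptor and Raf, and Spred proteins recruit the Ras-inactivating protein neurofibromin. The cells here were grown in medium with serum, which itself holds growth factors.

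Libraries held 14549787 to 17228929 counts, and 14471 genes were abundant enough to test. Levels are given as CPM, counts scaled to a common library size with the TMM method. The luminal keratin genes Krt8 and Krt18 lay at 559 to 836 and 760 to 1127 CPM, whereas the adhesion gene Cdh1, a defining marker of epithelium, had at most 0.777 CPM. Among the other epithelial markers, Epcam lay at 17.7 to 44.8 CPM and Krt14 at 3.60 to 20.4, and Krt5 and Trp63 had at most 3.04 and 0.566. The epithelial list had 5 of its 7 markers tested. Its sum was 1390 to 1957.5 CPM in Ctrl, 1526 to 1759.5 in EpPT1 and 1468 to 1692 in EpPT2. Of the fibroblast markers, Dcn and Vim were abundant (medians of 1998.5 and 1439 CPM) and Thy1 had 0 counts in every library. Pdgfra had at most 8.19 CPM, Col1a1 3.34, Pdgfrb 0.426 and Col1a2 0.124, so the sum of this list is almost all Dcn and Vim. The fibroblast list, 4 of whose 7 markers were tested, summed to 2021 to 6041 CPM in Ctrl, 1328 to 3698 in EpPT1 and 1396 to 3561 in EpPT2. In each library mitochondrial genes took 2.74% to 7.48% of all counts. This share was 6.06% to 7.48% in Ctrl 3, EpPT1 3, EpPT2 2 and EpPT2 3 and 2.74% to 3.62% in the other 5 libraries, so it divided every group. The labels name no batch. In bulk RNA, fewer cells of a type and less RNA per cell cannot be told apart.

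Of the 9 genes, 8 were abundant enough to test, and Spry2, a much studied antagonist of growth factor receptors, was not. Spry2 (chromosome 14, 105891947 to 105896819, GRCm38) had 1 count in EpPT1 3 and 0 in the other 8 libraries. From counting error alone, a count of 0 is compatible with a level of as much as 3 counts, which corresponds to 0.170 to 0.225 CPM depending on the library.

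Promoter sequences of 7 of the 9 genes were found in RefSeq (GRCm38.p6), as windows of 250 bases before and 50 after the transcription start that RefSeq gives. The Spred1 window (117120821 to 117121120) ends before the start of the gene in the count table. Its end was not found in the first bases of a GENCODE M21 transcript of Spred1, so it may not be the promoter of the transcript counted here. Both strands were searched for the cyclic AMP response element TGACGTCA (CRE), its short form TGACG, the AP-1 site TGANTCA, the ETS core CCGGAAG and the CArG box, the site of serum response factor. The full CRE contains the short form, and both are counted. The 3 windows with a match are shown because they include Dusp1, the gene with the widest range here, and Spred2, the gene with the smallest p-value. Capitals mark the matches.
Dusp1, chr17:26508423-26508722, minus strand: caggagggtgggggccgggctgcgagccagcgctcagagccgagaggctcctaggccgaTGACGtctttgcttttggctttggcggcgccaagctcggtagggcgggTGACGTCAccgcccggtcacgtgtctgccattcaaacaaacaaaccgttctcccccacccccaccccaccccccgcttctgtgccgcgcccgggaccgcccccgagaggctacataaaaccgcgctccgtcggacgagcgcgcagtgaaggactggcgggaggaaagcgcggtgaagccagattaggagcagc
Dusp5, chr19:53528895-53529194, plus strand: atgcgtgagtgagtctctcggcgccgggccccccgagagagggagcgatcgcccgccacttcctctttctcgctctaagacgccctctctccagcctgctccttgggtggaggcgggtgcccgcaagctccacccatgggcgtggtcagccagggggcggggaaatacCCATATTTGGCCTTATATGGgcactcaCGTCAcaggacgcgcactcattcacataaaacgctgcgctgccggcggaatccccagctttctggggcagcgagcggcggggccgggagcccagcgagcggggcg
Spred2, chr11:19924192-19924491, plus strand: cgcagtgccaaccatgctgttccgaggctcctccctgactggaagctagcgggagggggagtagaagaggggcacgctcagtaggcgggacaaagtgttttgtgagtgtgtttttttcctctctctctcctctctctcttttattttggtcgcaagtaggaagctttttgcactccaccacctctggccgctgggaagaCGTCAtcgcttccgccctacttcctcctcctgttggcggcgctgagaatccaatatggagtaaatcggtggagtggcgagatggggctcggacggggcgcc
In the Dusp1 window a full CRE began at position -143 from the start, with short forms at -191, -143 and -140. The Dusp5 window held CArG boxes at -82 and -72 and a short form at -55, and that of Spred2 a short form at -51, both on the opposite strand and so read as CGTCA. The windows of Dusp6, Spry1, Spry2 and Spred1 held none of the letters searched, with the limit just given for Spred1. Of 32851 promoters of the same length, 1.8% held a full CRE, 20.8% the short form, 7.8% the AP-1 site, 8.9% the ETS core and 1.6% a CArG box. These are matches of letters and not measured binding.

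Dusp1 had by far the widest range of the 8 tested genes. It encodes a nuclear phosphatase of p38, JNK and ERK that is induced within minutes by stress and mitogens (ENSMUSG00000024190, chromosome 17, 26505590 to 26508519, GRCm38). Its level was 43.6, 103 and 925 CPM in the Ctrl libraries, 160.4, 213 and 857 in those of EpPT1, and 152, 906 and 904 in those of EpPT2. The highest library was 21.2 times the lowest. Each group thus held at least 1 of the high and at least 1 of the low libraries, and the groups overlapped throughout. The 4 high values, 857 to 925 CPM, came from the 4 libraries with the high mitochondrial share, and the other 5 lay at 43.6 to 213. Its standard deviation within groups, 1.74 on the log2 scale, exceeded that of 99% of tested genes.

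Dusp4, Spred1 and Spry4 had the opposite arrangement, with the same 4 libraries lowest. Dusp4 encodes a nuclear phosphatase of ERK and JNK (ENSMUSG00000031530, chromosome 8, 34807297 to 34819894). It had 149.8, 209.8 and 119.8 CPM in the Ctrl libraries, 215, 234 and 105 in those of EpPT1, and 185, 128 and 136 in those of EpPT2. Its range in the 4 libraries, 105 to 136 CPM, lay below the 149.8 to 234 of the other 5. Spry4, an inhibitor of receptor-driven Ras activation (ENSMUSG00000024427, chromosome 18, 38586268 to 38601268), had 11.7, 9.75 and 3.08 CPM in the Ctrl libraries, 9.35, 17.9 and 3.88 in those of EpPT1, and 13.2, 3.03 and 3.81 in those of EpPT2. The 4 libraries held 41 to 56 counts of it, and the other 5 at least 162. Spred1, whose human counterpart is mutated in Legius syndrome (ENSMUSG00000027351, chromosome 2, 117121374 to 117182279), had 269, 204 and 114 CPM in the Ctrl libraries, 183, 169.8 and 76.3 in those of EpPT1, and 149.7, 81.0 and 80.9 in those of EpPT2. In each group its lowest value came from a library with the high mitochondrial share.

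A complete separation of the 4 libraries from the other 5 was common in these data, since 16.5% of tested genes lay wholly higher in the 4 and 18% wholly lower. Against this background 1 of the 8 genes lay higher and 3 lay lower. The labels do not say what the 4 libraries have in common, and the part of the mitochondrial share in these levels was not tested.

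**Figure D1:**
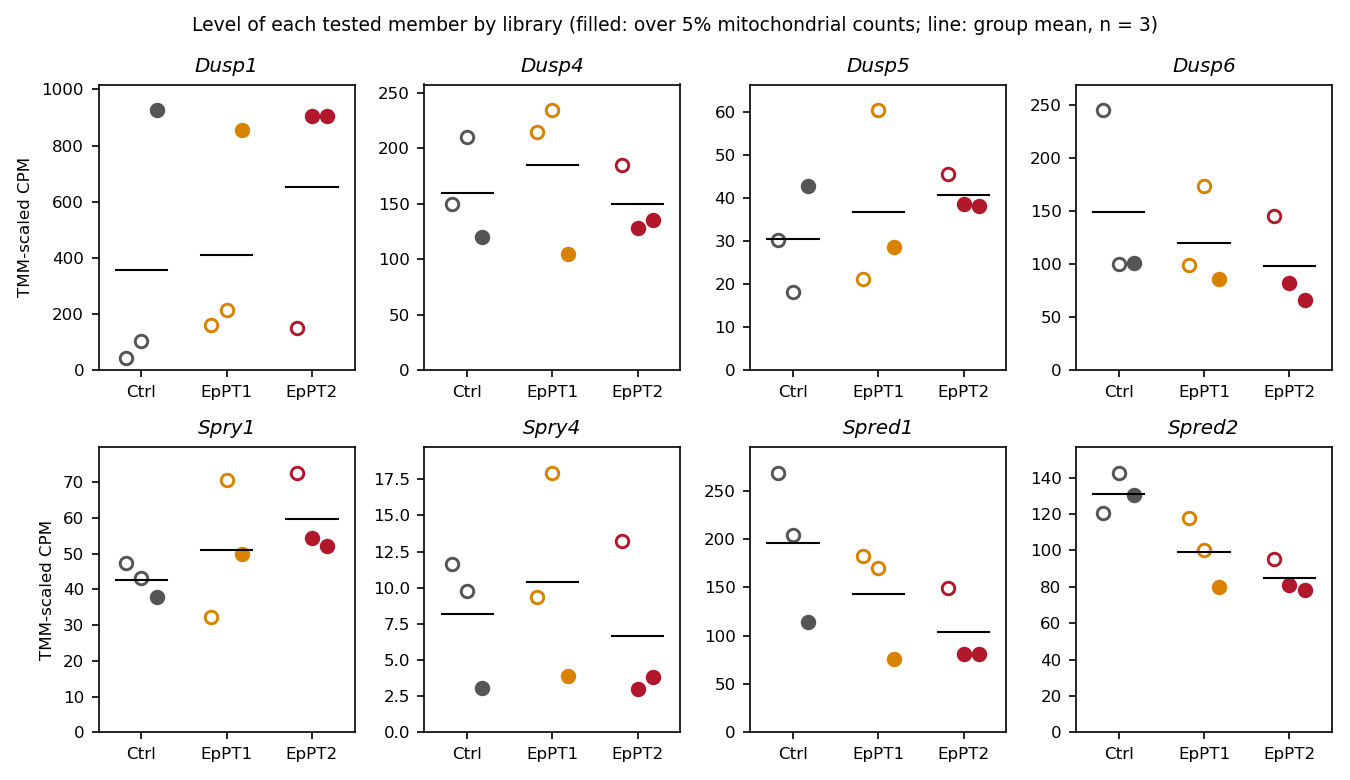
TMM-scaled CPM (vertical axis, from 0) of the 8 tested genes in the 3 libraries of Ctrl, EpPT1 and EpPT2, with a line at each group's mean. Filled points are the 4 libraries with over 5% mitochondrial counts, which lie at 857 to 925 CPM for Dusp1 and lowest for Dusp4, Spry4 and Spred1.

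Dusp6, Dusp5, Spry1 and Spred2 did not separate in that way. Dusp6 encodes a cytoplasmic phosphatase selective for ERK (ENSMUSG00000019960, chromosome 10, 99263231 to 99267489). It had 245, 100.4 and 100.7 CPM in the Ctrl libraries, 99.0, 174 and 85.9 in those of EpPT1, and 145, 82.3 and 66.1 in those of EpPT2. Ctrl 1 stood above the other 8 libraries, and the remaining Ctrl libraries lay inside the range of EpPT1. Dusp5, a nuclear phosphatase selective for ERK (ENSMUSG00000034765, chromosome 19, 53529109 to 53542431), had 30.4, 18.2 and 42.9 CPM in the Ctrl libraries, 21.2, 60.5 and 28.6 in those of EpPT1, and 45.7, 38.8 and 38.2 in those of EpPT2. The 3 EpPT2 libraries lay inside the range of EpPT1, and 2 of them inside that of Ctrl. An antisense gene, which has no row in the count table and so no known level, overlaps 547 bases of the exons of Dusp5. Since it is not known whether counting used strand, reads of the pair cannot be told apart. For the same reason 11 bases shared by the exons of Dusp1 and the opposite-strand gene Ergic1 are uncertain, as are 710 bases that Spry1 shares with the opposite-strand gene Gm42922, which had at most 2 counts in a library.

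Spry1, a Sprouty gene known as an inhibitor of fibroblast growth factor signalling (ENSMUSG00000037211, chromosome 3, 37639947 to 37644598), had 47.3, 43.2 and 37.8 CPM in the Ctrl libraries, 32.4, 70.6 and 49.98 in those of EpPT1, and 72.7, 54.3 and 52.1 in those of EpPT2. All EpPT2 values exceeded all Ctrl values, and those of EpPT1 spanned both sides of Ctrl. Spred2, like Spred1 an inhibitor of Ras to Raf signalling (ENSMUSG00000045671, chromosome 11, 19924375 to 20024026), had 120.5, 143 and 130.3 CPM in the Ctrl libraries, 118, 100.3 and 79.7 in those of EpPT1, and 95.4, 80.9 and 78.3 in those of EpPT2. Every exposed library lay below every Ctrl library. Its standard deviation within groups, 0.199 on the log2 scale, was above that of only 8.49% of tested genes.

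**Figure D2:**
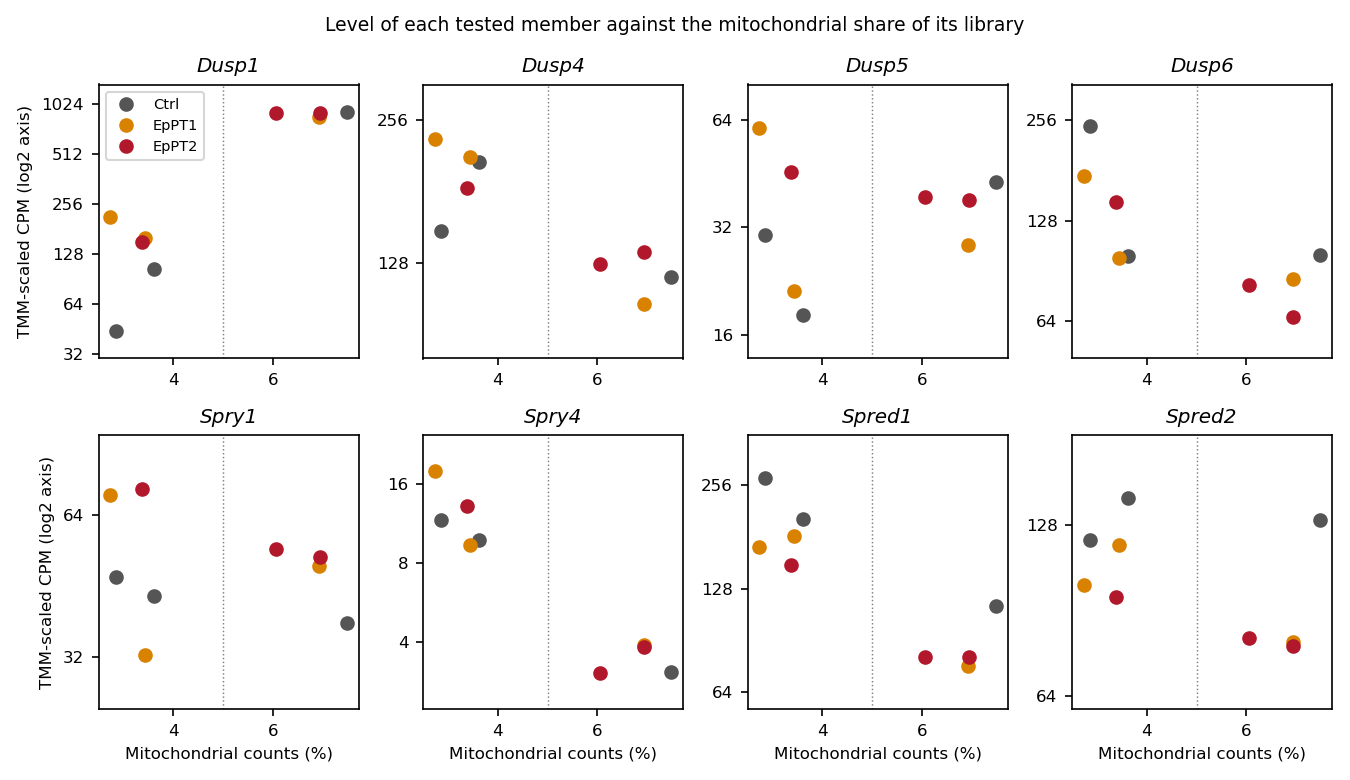
TMM-scaled CPM (vertical axis, log2 scale) of the 8 tested genes against the percentage of counts on mitochondrial genes (horizontal axis), 1 point per library coloured by group, with a dotted line at 5%. Dusp1 lies higher and Dusp4, Spry4 and Spred1 lie lower to the right of the line in all 3 groups, whereas for Spred2 the Ctrl library on the right, at 130.3 CPM, lies with the Ctrl libraries on the left.

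Per kilobase of the length given in the table, which lets genes be set against each other, Dusp1 had a median of 79.0 CPM per kb over the 9 libraries, Dusp4 54.7 and Dusp6 32.1. Spred1 (22.1), Spred2 (21.7), Spry1 (17.2) and Dusp5 (15.4) followed, and Spry4 had 2.04. Spry4 was lowest of the 8 in every library, with 0.662 to 3.91 CPM per kb, below the lowest value of any other tested member, 7.37 for Dusp5. The neighbours Spred1, Spred2, Spry1 and Dusp5 had overlapping ranges and no fixed order. Dusp1 stood first in all 4 libraries with the high mitochondrial share, followed by Dusp4 and then Dusp6 in each. In Ctrl 1 the order began with Dusp6 and Dusp4, and Dusp1 stood near the end. The ratio of Dusp1 to Dusp6, both per kilobase, was 10.7 in Ctrl 3, 11.6 in EpPT1 3, 12.8 in EpPT2 2 and 15.9 in EpPT2 3. In the other 5 libraries it was 0.207 to 1.88. The length used for Dusp1 was 2697 bases, whereas its exons in GENCODE M21 cover 3311. With the longer length its values per kilobase would be lower. Its place could then change where neighbours are close, as in Ctrl 2 (38.2 against 32.1 for Dusp6).

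EpPT1, the group with the lower fluence on its label, was first compared with Ctrl. Of the 8 genes, 0 passed edgeR's quasi-likelihood test (Benjamini-Hochberg adjusted p of 0.991 or above), and of all tested genes 0% passed. The DESeq2 test, which gave no p-value for Dusp1, called 0 of the other 7, and limma-voom called 0 of the 8. At an unadjusted p under 0.05 each tool again found none, beside 3.93% of all genes in edgeR, 5.1% in DESeq2 and 2.81% in limma-voom. The fold changes on the log2 scale were above 0 for 5 genes and below 0 for 3, with a median of 0.20, against 48% above 0 and a median of -0.02 over all genes. Spred2 gave the smallest p, with a difference of -0.40 (SE 0.21, 95% interval -0.86 to 0.06). It was the 1 gene of the 8 in which EpPT1 lay wholly below Ctrl, as it did in 2.53% of all genes. Spred1 differed by -0.45 (SE 0.41), Dusp6 by -0.31 (SE 0.44), Dusp4 by 0.21 (SE 0.33), Dusp5 by 0.27 (SE 0.41), Spry1 by 0.25 (SE 0.29) and Spry4 by 0.35 (SE 0.71). The value of Spred1 was -0.15 without EpPT1 3, -0.73 without Ctrl 3 and -0.18 after the correction for GC content described further on. For Dusp1 the difference was 0.20 (SE 1.06, 95% interval -2.17 to 2.57). Single libraries moved it far, to 2.48 without Ctrl 3 and to -0.93 without EpPT1 3. Without EpPT1 2 the median over the 8 genes was -0.30.

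EpPT2, with the higher fluence on its label, was compared with Ctrl next, and the 8 genes again gave no call, with the lowest edgeR adjusted p at 0.376 for Spred2. Over all genes 0% passed. Spred2 was the 1 gene of the 8 at an unadjusted p under 0.05 in edgeR, beside 12.2% of all genes. At that level DESeq2 found 2 of the 7 genes it gave a p-value for, beside 15% of all genes. The limma-voom test found 1 of the 8, beside 12.1%, and each tool called 0 of the members after adjustment. Without EpPT2 2 or without EpPT2 3 no member was at an unadjusted p under 0.05 in edgeR, beside 5.6% and 5.75% of all genes. Without Ctrl 3 there were 3, beside 15.1% of all genes. The mean level of Spred2 (± SD, n = 3) was 131 ± 11.1 CPM in Ctrl, 99.3 ± 19.1 in EpPT1 and 84.9 ± 9.21 in EpPT2. The log2 difference of EpPT2 from Ctrl was -0.63 (SE 0.21, 95% interval -1.09 to -0.17) and the groups did not overlap, with all 3 EpPT2 libraries lower. EpPT2 lay wholly below Ctrl in 10.9% of all genes and wholly above in 12.3%, so 1 such gene in each direction among 8, Spred2 and Spry1, is near the background.

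Spred1 differed by -0.91 (SE 0.42, 95% interval -1.84 to 0.01), with 196 ± 77.7 CPM in Ctrl and 103.9 ± 39.7 in EpPT2, and Ctrl 3 lay inside the range of EpPT2. Spry1 differed by 0.48 (SE 0.29), with 42.8 ± 4.76 CPM in Ctrl and 59.7 ± 11.3 in EpPT2, and its groups did not overlap. Dusp6 gave -0.60 (SE 0.44), or -0.04 without Ctrl 1. For Dusp5, Dusp4 and Spry4 the differences were near or below their standard errors. Dusp5 gave 0.42 (SE 0.41), Dusp4 -0.10 (SE 0.33) and Spry4 -0.29 (SE 0.71). Dusp1 had 357 ± 493 CPM in Ctrl and 654 ± 435 in EpPT2, a log2 difference of 0.87 (SE 1.07, 95% interval -1.51 to 3.25), and 3.15 without Ctrl 3. The median over the 8 genes was -0.19, with 3 above 0, against -0.03 and 47.9% over all genes. Both exposed groups were compared with the same 3 Ctrl libraries, so the lower values of Spred1 and Spred2 in both are not independent of each other.

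**Figure D3:**
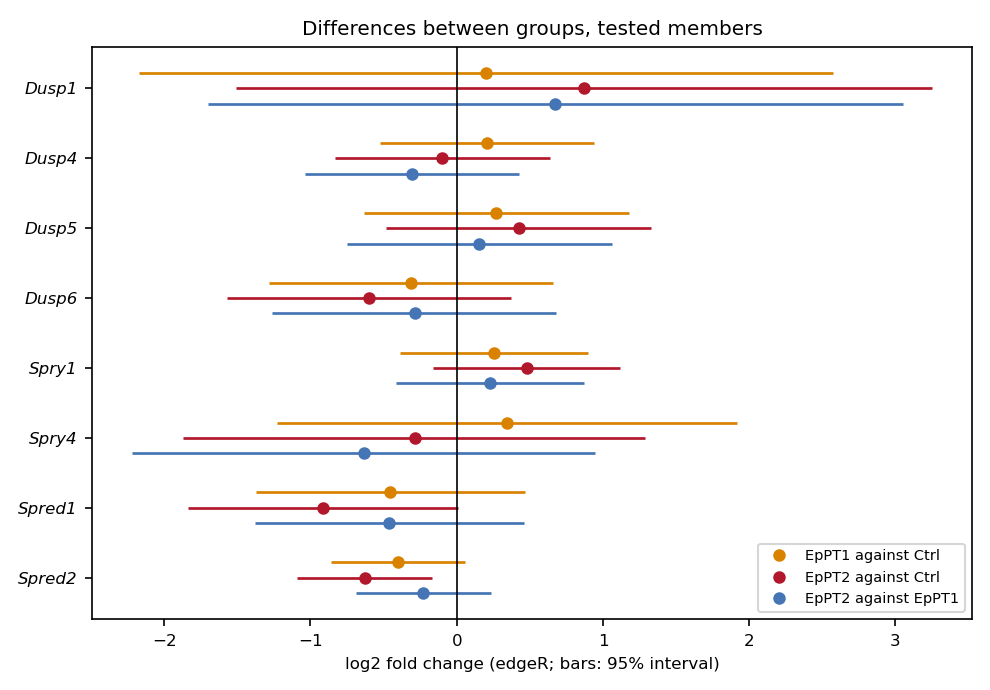
Log2 fold changes from edgeR (horizontal axis) for the 8 tested genes in the 3 comparisons, with bars for the 95% interval. All intervals but that of Spred2 in EpPT2 against Ctrl, -1.09 to -0.17, include 0, and those of Dusp1 are the widest.

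Because the mitochondrial share divided every group, levels were also set side by side among libraries of like share. Among the 5 libraries with the low share, Spred1 had 269 and 204 CPM in Ctrl and 183, 169.8 and 149.7 in the exposed libraries. Among the 4 with the high share it had 114 CPM in Ctrl 3 and 76.3 to 81.0 in the exposed ones. Spred2 had 120.5 and 143 against 95.4 to 118 CPM in the first set, and 130.3 against 78.3 to 80.9 in the second. In both genes each exposed library thus lay below each Ctrl library of its own set, as it did in 5.54% of all genes, and the other 6 genes did not show this. For Spred2 this had to hold, since every exposed library lay below every Ctrl library. In the high-share set Ctrl 3 was the only control. Dusp1 had 43.6 and 103 CPM in Ctrl against 152 to 213 among the low-share libraries, and 925 against 857 to 906 among the high-share ones, so that Ctrl was lowest in one set and highest in the other.

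With the mitochondrial share as a covariate, Dusp1 in EpPT2 against Ctrl gave a difference of 1.01 with a standard error of 0.32, in place of 1.07 without it. In that fit Spred1 gave -0.67 (SE 0.17), Spred2 -0.60 (SE 0.17) and Spry1 0.53 (SE 0.24). Then 4 genes, Dusp1, Spry1, Spred1 and Spred2, had an unadjusted p under 0.05 in edgeR, as did 24.4% of all genes in this fit, and 0 of the 8 passed after adjustment (lowest adjusted p = 0.0966, for Spred1). In EpPT1 against Ctrl the same fit gave 1.19 (SE 0.34) for Dusp1, -0.54 (SE 0.16) for Spred1 and -0.43 (SE 0.17) for Spred2, with a lowest edgeR adjusted p of 0.318.

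GC-rich genes had higher levels, relative to the mean of all libraries, in 5 of the 6 exposed libraries. The slope of this log2 deviation per 10 percentage points of GC content was -0.495 to -0.223 in Ctrl, -0.355 to 0.368 in EpPT1 and 0.186 to 0.291 in EpPT2. Of the 8 genes Spred1 had the lowest GC content (41.2%), Dusp6 had 49.0%, Spry4 and Spred2 51.2% each, and Dusp1, Dusp4, Dusp5 and Spry1 54.0% to 56.7%. After removal of each library's trend with GC content, Spred1 gave -0.48 (SE 0.35) in EpPT2 against Ctrl and Spry1 0.01 (SE 0.28), whereas Spred2 gave -0.67 (SE 0.19), with an edgeR adjusted p of 0.795.

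EpPT2 and EpPT1 were compared directly, without Ctrl as the reference, to ask whether the exposures differed. None of the 8 genes passed (edgeR adjusted p = 1 for each), none had an unadjusted p under 0.05 in edgeR, DESeq2 or limma-voom, and none had groups that did not overlap. Over all genes 0% passed in edgeR and 2.45% had groups that did not overlap. An unadjusted p under 0.05 was reached by 0.214% in edgeR, 0.263% in DESeq2 and 0.152% in limma-voom. Fold changes were above 0 for 3 of the 8 and for 48.3% of all genes. The largest were 0.67 (SE 1.07) for Dusp1 and -0.635 (SE 0.71) for Spry4. Spred2 gave -0.23 (SE 0.21, 95% interval -0.69 to 0.23), an interval wide enough to hold a difference as large as that between EpPT2 and Ctrl.

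The rest of the pathway was described with 97 further genes in 5 lists, of which 88 were tested. In both comparisons with Ctrl 0 passed in edgeR, DESeq2 and limma-voom. At an unadjusted p under 0.05 edgeR found 2 of the 88 in EpPT1 and 17 in EpPT2, where it found 3.93% and 12.2% of all genes. DESeq2 found 4 and 20 of the 88, beside 5.1% and 15% of all genes, and limma-voom 2 and 14, beside 2.81% and 12.1%. With low-count genes kept in, 4 of 93 passed in edgeR in EpPT2 against Ctrl, namely Dusp8, Fos, Map2k7 and Srf. That fit called 268 of all 28724 genes. The fold changes of Dusp8, Srf and Map2k7 hardly moved from the main fit, while their standard errors fell, for Dusp8 from 0.50 to 0.36. That of Dusp1 fell from 1.07 to 0.36, although its Ctrl libraries ranged from 43.6 to 925 CPM. The fit with low-count genes kept in may thus understate the spread between libraries. Fos had overlapping groups and gave 1.29 (SE 1.08) in the main fit. The list of the cascade from adaptor to ERK, with 25 tested genes, also holds the downstream kinase genes Rps6ka1 and Rps6ka3. In EpPT2 against Ctrl 9 of the 25 were above 0 and 16 below, with a median of -0.30. Of all genes 47.9% were above 0, with a median of -0.03. At an unadjusted p under 0.05, 6 of the 25 were lower and 1 higher, beside 768 lower and 995 higher of all 14471 genes. Rps6ka3, which encodes an ERK-activated ribosomal S6 kinase, had 126 ± 27.7 CPM in Ctrl and 66.3 ± 15.1 in EpPT2 (n = 3 each), a difference of -0.92 (SE 0.30). The scaffold gene Shoc2, needed for Raf activation, had 236 ± 17.95 and 131 ± 11.5 CPM and gave -0.85 (SE 0.29). In both genes the 3 EpPT2 libraries lay below Ctrl, as in 7 of the 25, with 1 wholly above, beside 10.9% and 12.3% of all genes. In EpPT1 against Ctrl Rps6ka3 gave -0.48 (SE 0.30) and Shoc2 -0.43 (SE 0.29). The EpPT1 values moved with single libraries, from -0.76 without EpPT1 1 to -0.24 without EpPT1 3 for Rps6ka3, and from -0.86 to -0.195 without the same libraries for Shoc2. The median of the cascade in EpPT1 was -0.16.

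Of 15 other dual-specificity phosphatase genes tested, 9 were above 0 in EpPT2 against Ctrl, with a median of 0.22, beside the same 47.9% of all genes. In 5 of the 15 EpPT2 lay wholly above Ctrl and in 1 wholly below, as in 12.3% and 10.9% of all genes. Dusp3, an ERK and JNK phosphatase also known as VHR, had 57.8, 62.4 and 65.8 CPM in the Ctrl libraries, 85.6, 95.1 and 123 in those of EpPT1, and 92.0, 124 and 110.0 in those of EpPT2. It was above Ctrl in all 6 exposed libraries, by 0.71 (SE 0.21) in EpPT1 and 0.81 (SE 0.21) in EpPT2. Dusp8, a phosphatase of JNK and p38, had 13.0 ± 6.95 CPM in Ctrl, 27.4 ± 16.0 in EpPT1 and 45.0 ± 13.7 in EpPT2. It differed by 1.07 (SE 0.50), or 0.525 without EpPT1 3, and by 1.79 (SE 0.50), and both genes had an edgeR adjusted p of 0.376 in EpPT2. In the fit with low-count genes kept in, where its standard error was 0.36, Dusp8 had an edgeR adjusted p of 0.000745 in EpPT2. That fit may understate the spread between libraries. The median of the list in EpPT1 was 0.15.

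Among further inhibitors of receptor and Ras signalling, 10 of 19 were above 0 in EpPT2 against Ctrl, with a median of 0.01. Socs3, a feedback inhibitor of cytokine receptors, differed by 1.31 (SE 0.53) and the Ras GTPase-activating gene Rasa2 by -0.76 (SE 0.285), both with overlapping groups. Of 20 tested genes listed as transcriptional outputs of ERK, 13 were above 0, with a median of 0.13. The list includes the transcription factor genes Elk1, Elk3 and Srf, which need not be readouts of ERK. Srf, the gene of serum response factor, gave 1.31 (SE 0.48) and the receptor gene Epha2 0.77 (SE 0.29). Both lay wholly above Ctrl, as did 3 of the 20 in all, with 1 wholly below, beside 12.3% and 10.9% of all genes. Srf had an edgeR adjusted p of 0.376 in the main fit. With low-count genes kept in, its edgeR adjusted p was 0.0165, at a smaller standard error of 0.33. The median of the outputs in EpPT1 was 0.28. On the JNK and p38 branches 4 of 9 were above 0, with a median of -0.06. The JNK kinase gene Map2k7 gave 1.09 (SE 0.41) and Mapk9, which encodes JNK2, gave -0.43 (SE 0.24). With low-count genes kept in Map2k7 had an edgeR adjusted p of 0.0447, at a smaller standard error of 0.31, against 0.376 in the main fit. After removal of the GC trend Dusp3 gave 0.89 in EpPT2 against Ctrl, whereas the other named genes of the lists lay nearer 0. Dusp8 then gave 1.18, Rps6ka3 -0.48, Shoc2 -0.42, Rasa2 -0.30, Socs3 0.68, Srf 0.17, Epha2 0.29, Map2k7 0.69 and Mapk9 -0.17.

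**Figure D4:**
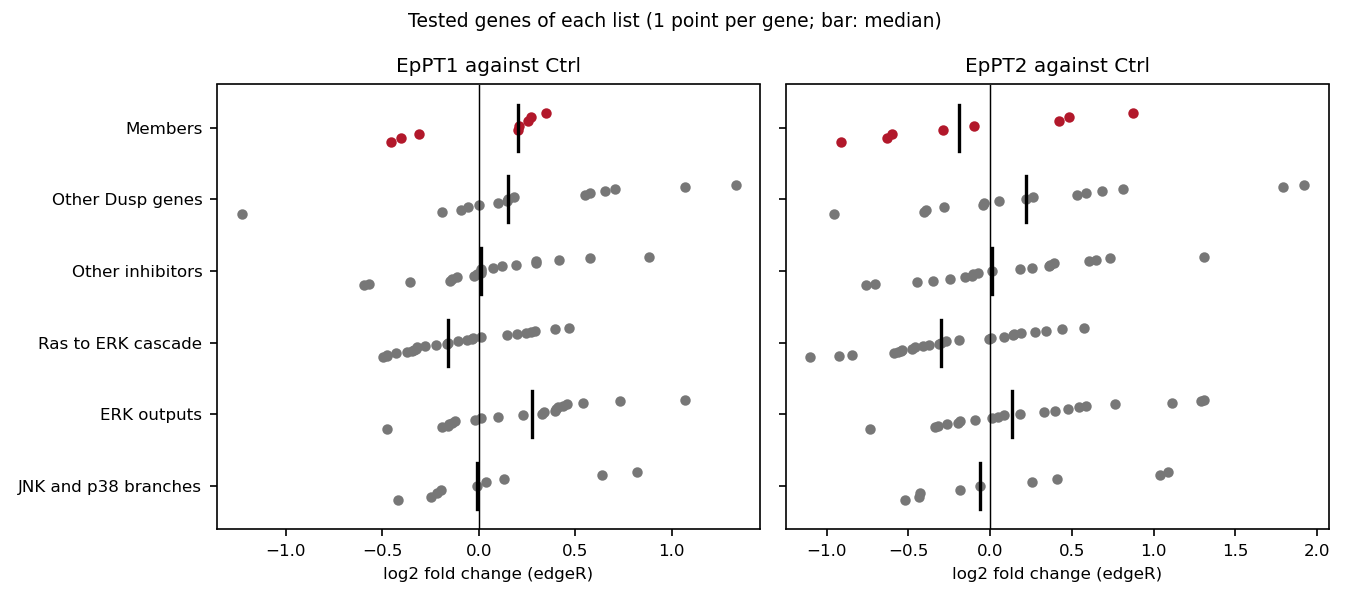
Log2 fold changes from edgeR (horizontal axis) of the 8 tested members and the tested genes of 5 pathway lists, in EpPT1 and EpPT2 against Ctrl, 1 point per gene with a bar at the median. Points lie on both sides of 0 in each list, and the largest median shift below 0 in EpPT2 is that of the Ras to ERK cascade, -0.30.

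Profiles were compared by the root-mean-square difference of log2 CPM, centred for each gene, over the 9 libraries, where 0 would be identical profiles. Among the 8 genes the closest pairs were Dusp5 with Spry1 (0.368), Dusp4 with Spred2 (0.374) and Dusp6 with Spred1 (0.393). These distances are not small beside the genes' own distances from a flat profile, which were 0.515 for Dusp5, 0.358 for Spry1, 0.392 for Dusp4, 0.308 for Spred2, 0.558 for Dusp6 and 0.622 for Spred1. Dusp1 lay 1.48 or more from every other member, and farthest from Spry4 (2.40). Of 9621 other genes with a mean of at least 5 CPM, those nearest to Dusp1 were Bicdl2 (0.295) and Fam98c (0.314). Nearest to Dusp4 were Nthl1 (0.116) and Dock8 (0.128), to Dusp5 Sesn2 (0.172) and Pqlc1 (0.193), and to Dusp6 Frmd6 (0.134) and Pik3r1 (0.142). Spry1 was nearest to Mrps5 (0.104) and Pidd1 (0.114), and Spry4 to Rmi2 (0.211) and Gart (0.222). Spred1 lay nearest to Efr3a (0.090) and Pola1 (0.096), and Spred2 to Snx4 (0.074) and Sec23ip (0.094).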

How the data were processed

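Total RNA of HC11 cells was sequenced in 9 libraries, labelled by group and replicate number. The authors deposited raw counts per gene with the gene length. Alignment was by Bowtie 0.12.2 to mm8 per the submitters' processing notes, whereas gene starts and ends equal those of GENCODE M21 (GRCm38) for 53499 of 54409 shared identifiers (98.3%). GRCm38 coordinates are as the table gives them. Among the members, those of Dusp1 and Spry4 do not equal GENCODE M21. Which program counted the reads, and whether by strand or after filters, is not stated in the sources used here. Each column matched 1 sample label. No pair of libraries agreed within sampling noise (lowest chi-square per gene 5.10).

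All 9 libraries entered 1 quasi-likelihood fit in edgeR 4.0.16 (R 4.3.3), with TMM scaling, filterByExpr and Benjamini-Hochberg adjustment over 14471 genes at 0.05. The residual degrees of freedom were 6 and the biological coefficient of variation 39.3%. Centred profiles used log2 CPM with a prior count of 2. Standard errors were taken from the fold change and F statistic, intervals are at 95%, and the fit was tested on simulated data. The median standard error against Ctrl was 0.37. Alternatives were DESeq2 1.42.0, limma-voom (limma 3.58.1), other scaling and filters, a replicate block, GC correction (13 tested genes had no GC value and no correction), the mitochondrial share as a covariate, only libraries under 5% mitochondrial counts, fits to the 6 libraries of a comparison, and fits without each library in turn.

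Members and lists were chosen with earlier results of these data known. All members are named, with the 2 genes of smallest p in EpPT2 against Ctrl from each list and the 2 most similar profiles for each member. The CArG box was added to the motif search after seeing the data.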

Additional observations from a re-analysis of the deposited data

How the results depend on the processing

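No member passed the adjusted threshold under any alternative in any comparison, and of 456 member values under alternatives 428 kept their direction and 28 reversed it. The cause was not tested. With GC correction, EpPT1 against Ctrl gave -0.0045 for Dusp1, -0.059 for Dusp5 and -0.093 for Spry1, and EpPT2 against Ctrl gave -0.035 for Dusp5. With the mitochondrial covariate, EpPT2 against Ctrl gave 0.046 for Dusp4 and 0.048 for Spry4, and EpPT2 against EpPT1 gave -0.18 for Dusp1. Among libraries under 5% mitochondrial counts, where EpPT2 keeps 1 library that is assumed to vary like the others, EpPT2 against Ctrl gave 0.056 for Dusp4, 0.32 for Spry4 and a member median of 0.19, and EpPT2 against EpPT1 gave -0.296 for Dusp1 and 0.093 for Dusp6. Leaving out 1 library at a time, EpPT1 against Ctrl ranged from -0.93 to 2.48 for Dusp1, -0.29 to 0.60 for Dusp5, -0.69 to 0.25 for Dusp6, -0.059 to 0.485 for Spry1 and -0.30 to 0.74 for Spry4. EpPT2 against Ctrl ranged from -0.28 to 0.15 for Dusp4, -1.26 to 0.062 for Spry4, -1.28 to -0.615 for Spred1 and -0.725 to -0.565 for Spred2. EpPT2 against EpPT1 ranged from -0.11 to 0.72 for Dusp5, -0.69 to 0.085 for Dusp6, -0.0069 to 0.54 for Spry1 and -1.61 to 0.019 for Spry4. The member median ranged from -0.30 to 0.24, -0.50 to 0.033 and -0.42 to 0.052 in the 3 comparisons. Over all genes edgeR called 0 in each, against 32, 268 and 2 without a filter on low counts and 1, 62 and 0 in DESeq2, and without EpPT1 1 it called 2 in EpPT2 against Ctrl. Members at an unadjusted p under 0.05 in EpPT2 against Ctrl numbered 1 (12.2% of all genes), against 2 with DESeq2 size factors (12.5%) or DESeq2 (15%), 3 without a filter (9.14%), with the 6 libraries alone (16.7%) or with the block (21.1%), and 4 with the mitochondrial covariate (24.4%). In EpPT1 against Ctrl they numbered 0 (3.93%), against 1 with GC correction (2.1%) or in the low-share libraries (1.23%) and 3 with the covariate (13.6%). Leaving out libraries gave 0 to 1, 0 to 3 and 0 to 1 members in the 3 comparisons. The shares of all genes in these fits were 1.55% to 13.3%, 5.6% to 16.3% and 0.114% to 4.77%. Without the filter Dusp8 gave 1.80, Srf 1.33 and Map2k7 1.11 in EpPT2 against Ctrl. The deviations of same-numbered libraries correlated at 0.149 to 0.732 for number 1, -0.636 to 0.0635 for number 2 and 0.627 to 0.729 for number 3. Since not every pair exceeded 0.1, the numbers were not taken as a pairing, and not every library correlated best with its own number. With the replicate block the members called stayed at 0 in each comparison. Spry2 had too few counts to be tested, and of the tested members Spry4 had the fewest, with 41 counts in its lowest library.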

Other observations

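Further genes of the fixed lists divided the 4 libraries with the high mitochondrial share from the other 5, and those named here were chosen after their values were seen. Of 20 tested genes listed as outputs of ERK, 5 lay wholly higher in the 4 libraries and 3 wholly lower, beside 16.5% and 18% of all genes. The immediate-early gene Fos had 161 to 298 CPM in the 4 libraries and 7.39 to 74.9 in the other 5, and Egr1, another immediate-early gene, had 328 to 555 and 82.3 to 219. Ccnd1, the gene of cyclin D1, had 120.2 to 147 and 257 to 467 CPM, and the ETS factor gene Etv5 had 18.1 to 25.0 and 30.7 to 43.5. Within the same list, genes thus lay on opposite sides. Spred3, the remaining Spred gene, had 44.9 to 51.6 CPM in the 4 libraries and 5.77 to 13.2 in the other 5, whereas Spred1 lay lower in the 4.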
